A study of Mus musculus with 4 samples.

Results

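Cyclin B, its kinase CDK1 and the proteins that switch that kinase on and off were followed in mouse oocytes exposed to high hydrostatic pressure. The 10 genes were taken by name from the annotation of the array: the B-type cyclins Ccnb1 and Ccnb2, the kinase Cdk1 (named Cdc2a on this array), the small CDK-binding subunits Cks1b and Cks2, the activating phosphatases Cdc25a, Cdc25b and Cdc25c, and the inhibitory kinases Wee1 and Pkmyt1. Every probe that carried one of these names was used, which gave 18 of the 41174 probes. Of these 18 probes, 11 passed the filter on dim probes and 7 did not, so that 7 genes could be tested and Cdk1, Cdc25c and Wee1 could not.

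Treated oocytes were held at 20 MPa for 60 min at 37 °C, and control oocytes went through the same handling without the pressure. Each of 4 two-colour arrays carried RNA from 1 treated pool in the red (Cy5) channel and 1 control pool in the green (Cy3) channel, with 50 oocytes to a pool. The submitters' design text calls the 4 replicates biological. The labels give the same dyes on all 4 arrays, so an effect of the dye and an effect of the pressure cannot be told apart. The arrays leave some doubt whether replicate 1 ran in that direction: its log2 ratios correlated with those of the other arrays at r = -0.19 to -0.15 across all probes, and the other pairs at 0.086 to 0.29. The labelled direction was kept, and means with the sign of replicate 1 turned are given where they differ in sign or order. Strain, age and meiotic stage of the oocytes are not given in the sources used here.

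Cyclin B bound to CDK1 forms maturation-promoting factor, the kinase that drives an oocyte out of its prophase arrest and into the meiotic divisions. In an arrested oocyte the kinase is held inactive by phosphates that WEE1-type kinases and PKMYT1 place on it, and CDC25 phosphatases remove them. The Cks proteins dock on CDK1 and help it recognise its substrates. A fully grown oocyte makes little new RNA and works from stored transcripts, so an array measures mainly this store. From each pool of 50 oocytes 240 pg of RNA was amplified, and the ratios were normalised within each array. The ratios thus compare a transcript's share of the RNA, and amounts per oocyte were not measured.

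The probes are 60 bases long, and 4 of them are printed because they carry the contrast between probes that gave signal and probes that gave little or none. The probe of Ccnb1 was well above background in both channels of every array. The other sequences are the probes nearest the start of the transcript for Cdc2a and Cdc25b and the only probe of Wee1. They gave signal on 1 array or none. All are written 5′ to 3′ in lower case with no base marked, as the deposited files hold them.
Ccnb1: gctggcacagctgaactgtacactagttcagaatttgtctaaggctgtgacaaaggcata
Cdc2a: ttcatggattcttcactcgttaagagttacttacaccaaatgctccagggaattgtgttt
Cdc25b: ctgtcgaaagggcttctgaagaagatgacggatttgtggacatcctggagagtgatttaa
Wee1: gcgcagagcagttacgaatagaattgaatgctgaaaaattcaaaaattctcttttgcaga
In mouse build mm7 these probes lie at chr13:97885282-97885341, chr10:68946079-68948488, chr2:130933480-130933539 and chr7:106054918-106054977, in that order, with the first pair on the minus strand. The Cdc2a coordinates span far more than 60 bases, so this probe joins separate stretches of the genome. Their GC contents were 45.0%, 38.3%, 45.0% and 35.0%.

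The members whose promoters were searched share a feature that the choice by name did not use. RefSeq promoters of build GRCm38.p6 were searched for 7 of the 10 genes, namely Ccnb1, Ccnb2, Cdk1, Cks1b, Cks2, Cdc25a and Cdc25b. Those of Cdc25c, Wee1 and Pkmyt1 were not searched, so whether they share the feature was not tested. The 250 bases before the start were searched on both strands for CCAAT, the letters of the box bound by the factor NF-Y, and for TTTGAA, the letters of the cell cycle homology region known from genes that peak before mitosis. Their reverse complements, ATTGG and TTCAAA, were counted as the same motif. The motifs were counted separately, and a match of one may share a letter with a match of the other. CCAAT was present in 7 of 7 member promoters, against 33.8% of the 32851 promoters in the table, and at least 2 copies were present in 6 of 7, against 10.1%. TTTGAA was present in 3 of 7, those of Ccnb2, Cdk1 and Cks1b, against 16.0%. These are matches of letters only, and the arrays hold no readout of promoter activity. The 150 bases before the start are shown for both cyclins, the kinase and Cks2, whose ratios lay below 0 on all 4 arrays in the labelled direction, with the matched letters in capitals.
Ccnb1: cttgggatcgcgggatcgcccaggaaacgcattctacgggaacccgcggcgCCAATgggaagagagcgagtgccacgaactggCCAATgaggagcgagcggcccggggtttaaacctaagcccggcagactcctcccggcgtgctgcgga
Ccnb2: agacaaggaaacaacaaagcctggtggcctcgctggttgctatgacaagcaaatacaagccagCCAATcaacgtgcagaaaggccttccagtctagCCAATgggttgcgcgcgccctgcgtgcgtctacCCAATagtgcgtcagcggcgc
Cdk1: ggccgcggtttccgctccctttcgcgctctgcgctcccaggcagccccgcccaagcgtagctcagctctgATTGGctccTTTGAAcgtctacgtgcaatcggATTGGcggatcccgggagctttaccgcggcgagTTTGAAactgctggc
Cks2: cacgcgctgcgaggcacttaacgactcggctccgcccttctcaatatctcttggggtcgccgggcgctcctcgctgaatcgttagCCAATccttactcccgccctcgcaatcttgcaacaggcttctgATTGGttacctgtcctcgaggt
The windows are chr13:100786487-100786636 (minus strand), chr9:70421555-70421704 (minus strand), chr10:69352913-69353062 (minus strand) and chr13:51645082-51645231 (plus strand) of GRCm38.p6.

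Detection separated the members. Ccnb1 (3 probes), Ccnb2, Cks1b, Cks2 (2 probes), Cdc25a (2 probes) and Pkmyt1 were well above background in both channels on all 4 arrays. Of all 41174 probes, 10.4% reached that. Of the 7 probes left out by the filter, 5 were not well above background in either channel on any array, as were 65.1% of all probes. The filter asked for signal well above background in 1 channel on 3 or more arrays, which 19.7% of all probes had.

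**Figure D1:**
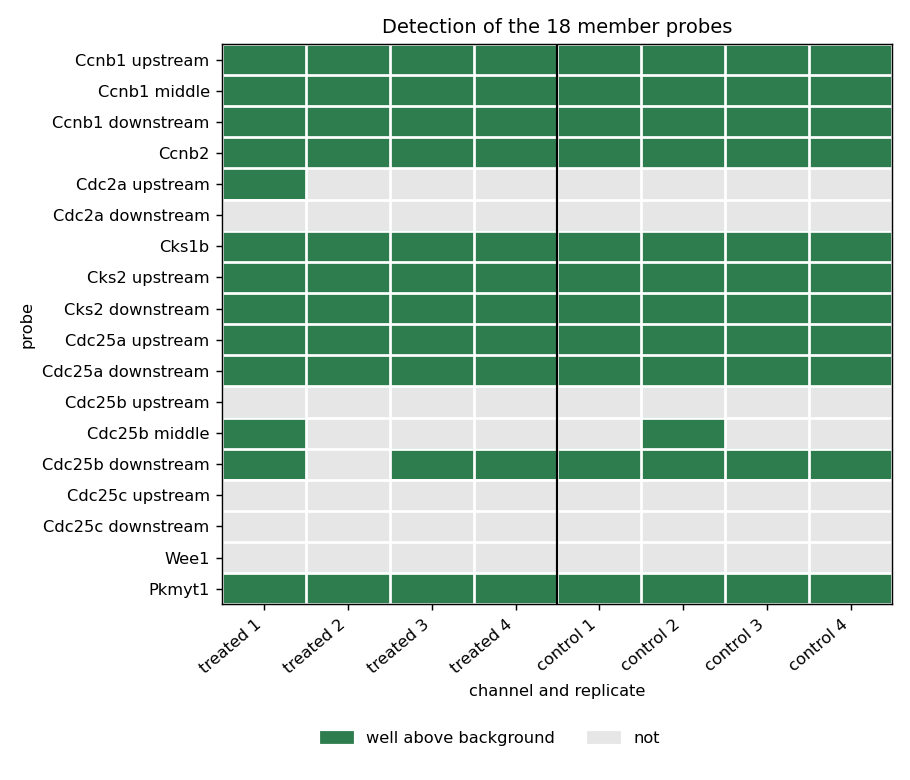
Detection of the 18 member probes (rows, ordered along each transcript from upstream to downstream) in the treated and control channel of replicates 1 to 4 (columns). Dark cells mark probes well above background. Ccnb1, Ccnb2, Cks1b, Cks2, Cdc25a and Pkmyt1 fill all 8 columns, and Cdc25c and Wee1 fill none.

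Cdk1, the kinase itself, was close to background with both of its probes. The upstream probe was well above background only in the treated pool of replicate 1, with a net intensity (spot mean less local background) of 38.98 there, and the control pools lay between 13.0 and 16.1. The probe at 68940820 to 68940879 on chromosome 10, downstream of it, was not well above background anywhere, with net intensities of 4.18 to 11.5 in treated and 12.1 to 21.6 in control pools. The 153 negative control spots of each array had medians of 3.10 to 4.98 in the treated and 13.9 to 18.1 in the control channel. Cdk1 spots were thus near the level of spots without a target, except for the single treated pool. The upstream probe had log2 ratios of 0.45, 0.020, -0.065 and -0.073 in replicates 1 to 4. The downstream probe had 0.062, 0.021, -0.0083 and 0.0070. With the control channel undetected throughout, no fold is given.

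Wee1 and Cdc25c gave no detected signal in any pool. The net intensity of Wee1 was 2.32 to 4.46 in treated and 13.8 to 15.1 in control pools, again near the negative controls. Both Cdc25c probes, on chromosome 18 at 35119875 to 35120741 and 35126652 to 35126711, lay between -2.57 and 7.75 in treated pools and between 13.3 and 19.6 in control pools. These 3 genes were not measurable at this signal, which does not show that their transcripts were absent.

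Cdc25b, the phosphatase that mouse oocytes need to resume meiosis, was detected on more arrays the nearer a probe lay to the end of the transcript. The upstream probe was not well above background on any array, the middle probe (130939028 to 130939087 on chromosome 2) on 1 array in each channel, and the downstream probe (130939226 to 130939282) on 3 arrays in the treated and 4 in the control channel. The upstream and downstream probes start 5746 bases apart in the genome.

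The comparison asks which of these transcripts differ in level after the pressure. Each value below is the log2 ratio of treated over control on 1 array, from background-corrected and loess-normalised intensities. With limma's moderated test, Benjamini-Hochberg adjusted over all 8124 kept probes, 0 of the 11 member probes passed at 0.05, and 0 of all kept probes did (0%). Unadjusted, 2 of 11 were under 0.05, both of Cks2 and both lower in treated pools. Of all kept probes 4.04% were under 0.05, 3.26% lower and 0.775% higher in treated pools. The lowest adjusted p of a member probe was 0.934, and the smallest two-sided p that an exact sign-flip test of 4 arrays allows is 0.125.

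Cks2, the CDK-binding subunit that germ cells need to complete the first meiotic division, was lower in the treated pool on 4 of 4 arrays with both probes. The downstream probe (50684621 to 50684680 on chromosome 13) had log2 ratios of -1.45, -1.61, -1.06 and -0.13 in replicates 1 to 4. Its mean was -1.06 ± 0.66 (SD, n = 4), a 2.09-fold lower level. Replicates 1 to 3 lay together, and replicate 4 was near 0. The upstream probe (50684531 to 50684590) had -1.46, -1.23, -1.12 and -0.047, with a mean of -0.97 ± 0.63 (SD, n = 4). The 2 probes do not overlap, start 90 bases apart, and differed by at most 0.37 on any array. With limma the unadjusted p was 0.0123 and 0.0153 in that order, and the adjusted p 0.934 for both. Of the kept probes with a value on every array, 9.22% lay below 0 on all 4 arrays, against 2 of the 11 member probes, and 3.04% lay above 0 on all 4, against 0 of the 11. With the sign of replicate 1 turned the means were -0.33 and -0.24, closer to 0 than those of Cdc25a (0.55 and 0.44 from its downstream and upstream probes), the downstream and upstream Ccnb1 probes (-0.54 and -0.52) and Cks1b (-0.47).

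The levels behind the Cks2 ratio varied more between pools than between treatments. In log2 intensity after normalisation between arrays, the downstream probe was at 10.34, 10.80, 9.40 and 8.40 in the treated pools and at 11.79, 12.41, 10.45 and 8.53 in the control pools of replicates 1 to 4. The control pools spanned 3.88 and the treated pools 2.40, so the groups overlapped widely although every pair ran the same way. Replicate 4, the pair with almost no difference, had the lowest level in both channels with this probe. With the upstream probe replicate 4 was the lowest in neither channel. It was at 9.21 in the treated and 9.25 in the control channel there, and replicate 3 at 8.02 and 9.14.

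**Figure D2:**
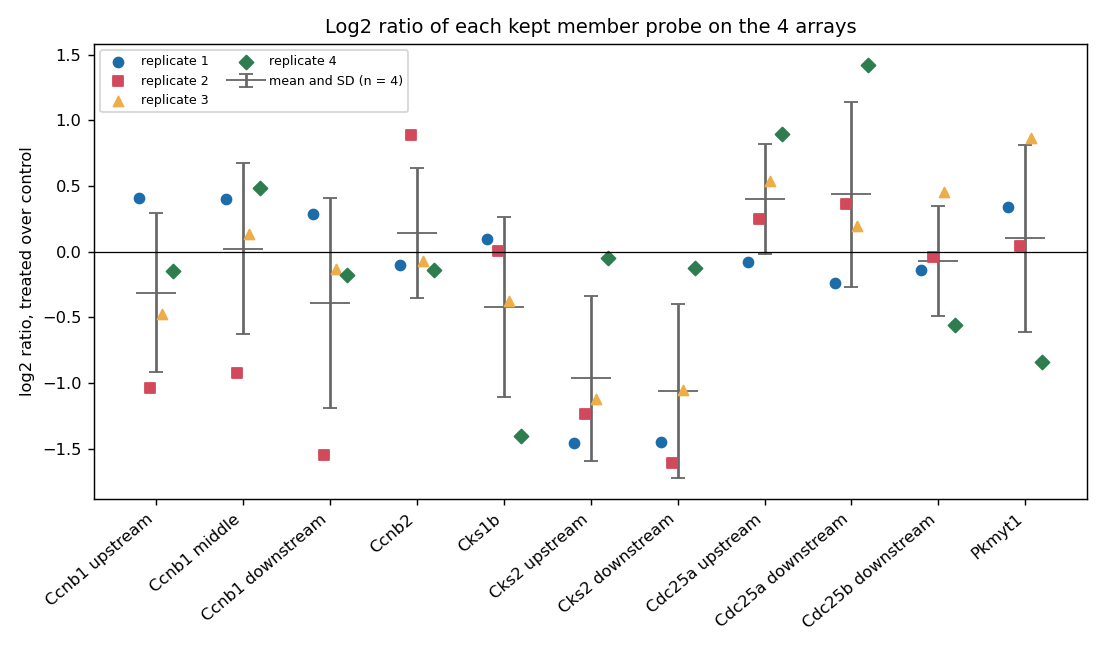
Log2 ratio of treated over control (y axis) for each kept member probe (x axis). Points are replicates 1 to 4, and bars give the mean and SD. Both Cks2 probes lie below 0 on all 4 arrays, between -1.61 and -0.047, and each other gene has points on both sides of 0.

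Cks1b, the other Cks protein, which also serves the destruction of CDK inhibitors, did not share the pattern of Cks2. Its probe (89542153 to 89542212 on chromosome 3) had log2 ratios of 0.093, 0.0034, -0.38 and -1.40. The mean was -0.42 ± 0.69 (SD, n = 4) with an adjusted p of 0.934 by limma, and the value rested on replicate 4, without which it was -0.093. The level of Cks1b was 12.16 to 13.09 in treated and 12.15 to 13.64 in control pools. Replicate 4, which showed the greatest difference in Cks1b, showed the least in Cks2.

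Ccnb1, the cyclin whose synthesis and destruction time the meiotic divisions, was measured with 3 probes whose starts lie within 660 bases on chromosome 13, and none gave a difference beyond the spread between arrays. The upstream probe had log2 ratios of 0.41, -1.04, -0.48 and -0.15 in replicates 1 to 4. The middle probe (97885016 to 97885075) had 0.40, -0.93, 0.14 and 0.48. The downstream probe (97884622 to 97884681) had 0.29, -1.55, -0.13 and -0.17. Replicate 1 was above 0 and replicate 2 the lowest with all 3 probes, whereas replicates 3 and 4 lay on different sides of 0 with different probes.

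The means of the Ccnb1 probes were -0.31 ± 0.60, 0.02 ± 0.65 and -0.39 ± 0.80 (SD, n = 4) from upstream to downstream, with adjusted p-values by limma of 0.934, 0.995 and 0.934. Without replicate 2 the downstream mean was -0.0062 and the upstream mean -0.072, and the middle mean was 0.34. Without replicate 1 the downstream and upstream means were -0.62 and -0.55. The control pools were even with the downstream probe, at 10.98 to 11.33 in log2 intensity (SD 0.19), while the treated pools ran from 9.76 in replicate 2 to 11.62 in replicate 1 (SD 0.76). With the middle probe the order was the other way, with an SD of 0.51 in control and 0.32 in treated pools. Probes of the same transcript differed by up to 0.66 on an array. RefSeq lists the related copies Ccnb1-ps, Ccnb2-ps and Cks1brt, and whether the probes of Ccnb1, Ccnb2 and Cks1b also bind them was not tested.

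Ccnb2, the B-type cyclin that can stand in for Ccnb1 in oocytes, stood apart from it on replicate 2. Its probe (70439814 to 70439873 on chromosome 9) had log2 ratios of -0.10, 0.89, -0.074 and -0.14. The mean was 0.14 ± 0.50 (SD, n = 4), with an adjusted p of 0.948 by limma, and -0.11 without replicate 2. On replicate 2, where every Ccnb1 probe was at its lowest, Ccnb2 was at its highest. The level of Ccnb2 in log2 intensity was 12.03, 12.16, 11.23 and 12.09 in treated and 12.14, 11.28, 11.30 and 12.22 in control pools. The high ratio of replicate 2 came with a control pool near the low pair of replicate 3 and a treated pool near those of replicates 1 and 4, while the treated pool of replicate 3 was lower.

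**Figure D3:**
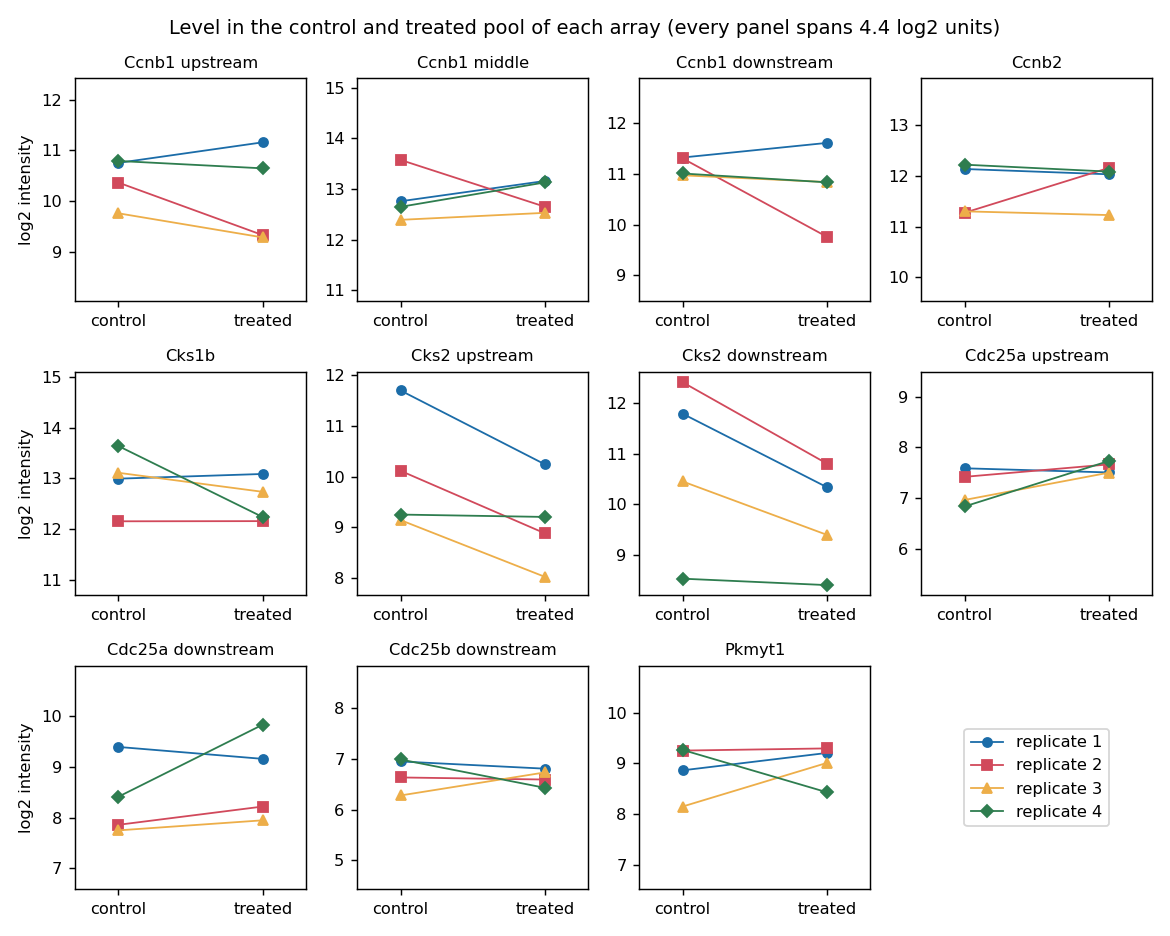
Log2 intensity of each kept member probe in the control and treated pool of an array (x axis), with a line joining the 2 pools of each replicate. All panels span the same range of log2 units, so slopes can be compared. The Cks2 lines slope down in replicates 1 to 3 and are nearly flat in replicate 4, and the pools lie far apart.

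Cdc25a, a CDC25 phosphatase that also acts before DNA replication, had the highest positive means among the members, also with the sign of replicate 1 turned. The upstream probe (109589547 to 109589609 on chromosome 9) had log2 ratios of -0.082, 0.25, 0.54 and 0.90, with a mean of 0.40 ± 0.42 (SD, n = 4). The downstream probe (109589667 to 109589726) had -0.24, 0.36, 0.20 and 1.42, with a mean of 0.44 ± 0.70 (SD, n = 4). Replicate 1 was below 0 and the other 3 arrays above 0 with both probes, and replicate 4 was the highest. The adjusted p by limma was 0.934 for both. Without replicate 4 the means were 0.23 and 0.11, and the downstream mean was 0.66 without replicate 1. The levels with the downstream probe were 9.16, 8.22, 7.95 and 9.83 in treated and 9.39, 7.86, 7.75 and 8.41 in control pools, so the groups overlapped.

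Cdc25b was tested through its downstream probe alone. The log2 ratios were -0.14, -0.041, 0.46 and -0.56, with a mean of -0.072 ± 0.42 (SD, n = 4) and an adjusted p of 0.972 by limma. Without replicate 3 the mean was -0.25, and without replicate 4 it was 0.091. Signal was dim, at 12.1 to 75.2 net intensity units in treated and 25.2 to 94.5 in control pools, and the treated pool of replicate 2 was not detected above background. On the side of inhibition, Pkmyt1, the membrane-bound kinase that phosphorylates CDK1, had log2 ratios of 0.34, 0.043, 0.86 and -0.84 with its probe at 21916554 to 21916613 on chromosome 17. Its mean was 0.10 ± 0.71 (SD, n = 4), with an adjusted p of 0.972 by limma. Replicates 3 and 4 took opposite sides, the mean being -0.15 without replicate 3 and 0.42 without replicate 4, and treated pools at 8.43 to 9.29 overlapped control pools at 8.15 to 9.26 in log2 intensity.

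Over the 7 genes with a kept probe, each by its brightest, 0 passed in either direction, 4 had a mean above 0 and 3 below, and the median log2 ratio was 0.024. Over all 6931 genes tested in the same way 0 passed (0%), 52.5% had a mean below 0 and the median was -0.017. The brightest Ccnb1 probe is the middle one, whose mean is nearest 0.

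The wider CDK1 network was read from 5 lists of genes outside the members. Of other cyclins and cyclin-dependent kinases 17 of 39 genes on the array had a kept probe, of kinases and adaptors upstream of CDK1 17 of 29, of Greatwall and the CDK1-opposing phosphatases 15 of 24, of CDK inhibitors listed together with Dusp1 3 of 9, and of the machinery of cyclin B destruction 9 of 14. With limma 0 genes of each list passed in either direction. Unadjusted, 1 of the other cyclins and kinases and 2 of the phosphatase list were under 0.05 and 0 of the other lists, where 4.16% of all genes were. The list medians were -0.0094, -0.074, -0.021, -0.013 and 0.0045 in that order. The number of genes with a mean above 0 was 8 of 17, 5 of 17, 6 of 15, 1 of 3 and 5 of 9.

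Among the other cyclins and kinases, the genes with the smallest p were Cdk14, Ccna2 and Ccng2, and none passed. Cdk14, a kinase that works with cyclin Y, had 0.72, 0.59, 0.66 and 0.74, a tight set with a mean of 0.68 ± 0.064 (SD, n = 4). Ccna2, the A-type cyclin that also activates CDK1, had 0.025, -0.93, -0.42 and -0.44, and Ccng2, a cyclin linked to growth arrest, had -0.62, -1.01, -1.57 and 0.39. Of the upstream kinases and adaptors, Camk2d had a mean of 0.58 ± 0.55, Bora, the cofactor that turns on Aurora A, had 0.46 ± 0.49, and the 14-3-3 protein gene Ywhag had 0.30 ± 0.21 (SD, n = 4). The Bora value is that of its brightest probe, and the mean over its kept probes was 0.019. With the sign of replicate 1 turned Bora was at 0.049 and Camk2d at 0.16. Camk2d was at 2.04 with the scanner's processed signals, and Bora at 1.09. Bora and Camk2d were each below 0 on 1 array, and Ywhag was above 0 on 4 of 4. Their adjusted p by limma was 0.928.

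Of the phosphatases that oppose CDK1, the subunit genes with the smallest p pointed both ways and none passed. Ppp1r2, an inhibitor of protein phosphatase 1, had -1.39, -0.16, -0.87 and -0.34, and was detected in 2 treated and 4 control pools. These are the values of its brightest probe, with a mean of -0.69, and the mean over its kept probes was -0.45. Ppp2r5c, a regulatory subunit of protein phosphatase 2A, had 1.32, 0.17, 0.38 and 0.68. Ppp2r2b, another such subunit, had a mean of -0.66 ± 0.88 (SD, n = 4) and was detected in only 1 treated pool. Its mean was -0.37 without replicate 3. The size of these differences varied with the processing. With the scanner's processed signals, used without loess, Ppp2r2b was at -3.40 and Ppp1r2 at -2.49. Without background subtraction but with loess they were at -0.89 and -0.98. Which step of the processing made the difference was not tested. With the sign of replicate 1 turned the means of Ppp1r2 and Ppp2r5c were 0.0043 and -0.025.

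In the destruction of cyclin B, Cdc20, the activator of the anaphase-promoting complex, had the most scattered ratios, at -1.95, 0.58, 0.017 and -2.50. Its mean was -0.96 ± 1.496 (SD, n = 4), with 2 arrays on each side of 0. The mean was -0.45 without replicate 4, -0.63 without replicate 1, -1.48 without replicate 2, -0.029 with arrays weighted and 0.012 with the sign of replicate 1 turned. Fbxo5, an inhibitor of the same complex, had 0.52, -0.23, -0.10 and 1.89, and Cul1, a scaffold of SCF ubiquitin ligases, had a mean of -0.25 ± 0.28 (SD, n = 4). The CDK inhibitor genes with a kept probe were Cdkn1b and Cdkn2c, with means of -0.092 and -0.013. Cdkn1b was well above background in only 1 treated and 3 control pools, and was at -0.85 with the scanner's processed signals. Dusp1, which stands on the same list, is a MAP kinase phosphatase and no CDK inhibitor, and its mean of 0.062 is the only one above 0 there.

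**Figure D4:**
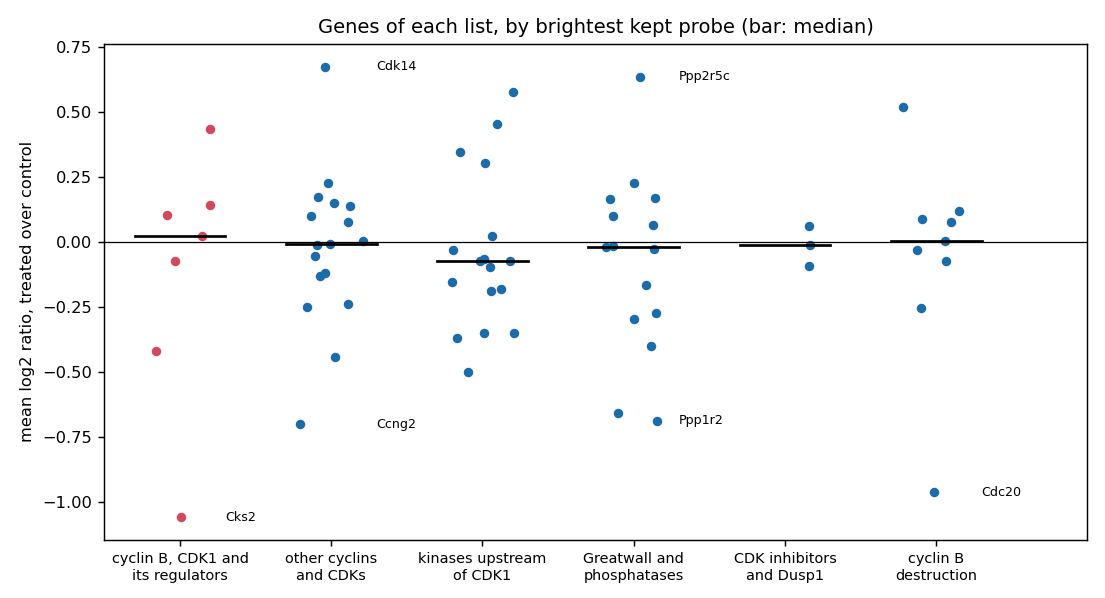
Mean log2 ratio of treated over control (y axis) for the genes of each list with a kept probe, each by its brightest (points), with the list's median as a bar. Cks2 at -1.06 and Cdc20 at -0.96 are the lowest points, Cdk14 at 0.68 is the highest, which does not hold with the sign of replicate 1 turned (-0.33, 0.012 and 0.32), and the medians lie between -0.074 and 0.024.

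The arrays differed in ways that bear on all of these values. Of 43379 spots, 7049 to 11155 were well above background in the treated and 8309 to 10837 in the control channel. On replicate 1 the brightest 1% of treated spots began at 2.56 times the net signal of the control channel, and at 0.25 to 0.40 times on replicates 2 to 4. Oocyte markers were well above background throughout for 11 of 18 genes, Gdf9, Zp3 and Dppa3 among them, against 2 of 20 cumulus and granulosa markers (Nr5a1 and Tnfaip6), 2 of 9 blood and immune markers and 1 of 11 markers of oviduct, vessels and stroma. The oocyte marker Nlrp5 was not well above background anywhere. Summed over the cumulus and granulosa list, linear levels were 2766 to 5601 in treated and 3074 to 4729 in control pools. Of these 20 genes 7 were not well above background anywhere, Amh, Foxl2 and Fshr among them. A kept probe was present for 8, Cyp19a1, Ptgs2 and Inha among them. The part of other cells in the values above was not tested.

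Across 16 other settings of the analysis the Cks2 means stayed below 0 wherever the setting gave a value. Those of Ccnb2, Pkmyt1, the middle Ccnb1 probe and the downstream Cdc25a and Cdc25b probes took both signs. Several settings could not move a probe's mean: normalisation between arrays, the changed filters, the brightest probe and the trended, robust model. Both Cks2 probes ran from -1.65 to -0.24. The upstream Cdc25a mean was 0.075 to 0.73. Centring each array on its median, in place of loess, gave a median of -0.34 over all genes, and on that scale the upstream Cdc25a probe was at 0.075, the downstream at -0.043, Ccnb2 at -0.57 and the downstream Cks2 probe at -1.65. Under none of the settings did a member pass, and the lowest adjusted p of a member probe by limma was 0.36.

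**Figure D5:**
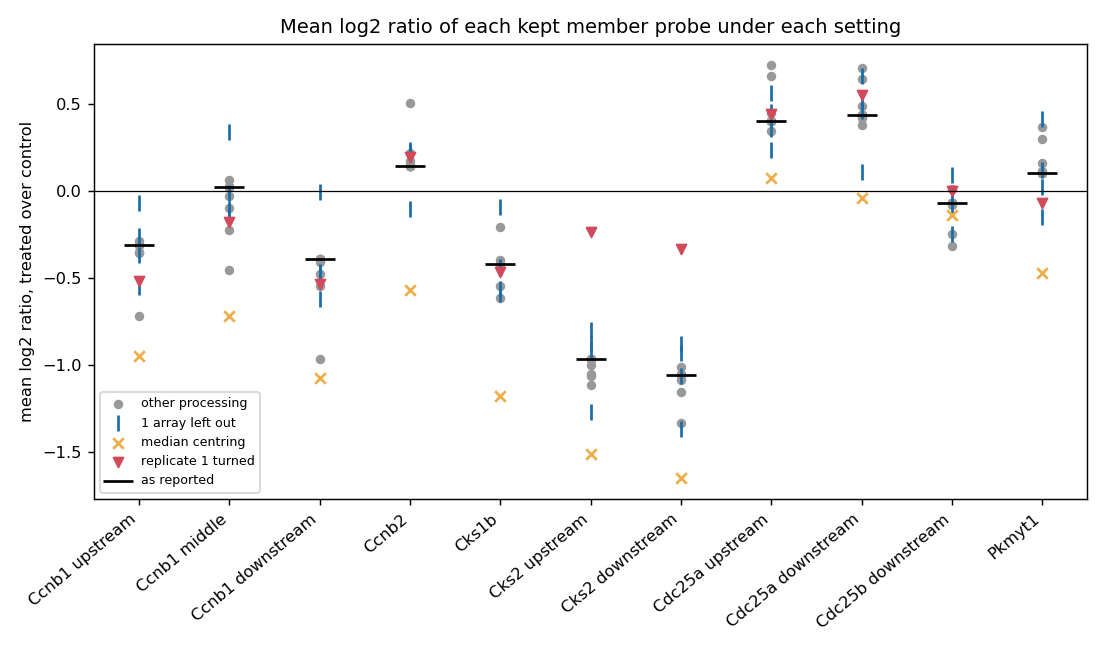
Mean log2 ratio of treated over control (y axis) for each kept member probe (x axis) as reported and under the other settings: other processing, 1 array left out, median centring and replicate 1 turned. The Cks2 points all lie below 0, between -1.65 and -0.24, and median centring lies lowest for 10 of the 11 probes.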

How the data were processed

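Probe sequences and positions (mouse build mm7) are those of the deposited files. Per the labels' protocols, 240 pg of total RNA per pool was amplified in 2 rounds and labelled. Per the submitters' processing notes, Agilent Feature Extraction 9.5.1.1 read the arrays. The deposited scanner files hold the mean spot intensity and median background intensity of each channel, and the authors' value table holds their log10 ratio of red over green, which it matches within 0.0000000005. That ratio was used as an alternative.

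From the deposited intensity values, log2 ratios were computed with limma 3.58.1 in R 4.3.3: normexp background correction (offset 50), loess within arrays with control spots at weight 0, outlier spots left out. No spot was saturated. Levels per channel were further normalised between arrays (Aquantile). The filter kept the 8124 probes that 1 channel showed well above background on 3 or more arrays. limma's moderated test (lmFit, eBayes) compared each mean ratio with 0, and p-values were Benjamini-Hochberg adjusted over the kept probes, or over the 6931 genes by brightest probe for gene lists. The fit was tested on simulated data with planted changes larger than any member mean, so changes of the size reported here were not covered. Gene names were updated through RefSeq (GRCm38.p6), which matched 5043 tested genes by accession, 816 by symbol and 379 by synonym and left 693 with the file's name.

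All 10 members are named, with the 3 genes of smallest unadjusted p in each other list. The members and lists were chosen with earlier results of these data known. Alternatives covered background, normalisation, filter, probe choice, model, the value table, the sign of replicate 1 and leaving out each array. All 4 arrays share 1 slide, so no slide effect could be fitted. The number of arrays limits the precision.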

Additional observations from a re-analysis of the deposited data

Results flagged for a closer look

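Sets of 4 array values were checked with Dixon's ratio, the gap from the highest or lowest value to its neighbour over the whole range, at its 95% critical value. Of 34 sets 2 held such an array, and that critical value is set so that chance gives about 1 in 20. For Ccnb2, the log2 ratio of replicate 2 was 0.89, while the other arrays lay between -0.14 and -0.074. For Ywhag, the log2 ratio of replicate 2 was 0.62, while the others lay between 0.15 and 0.23. The causes were not tested.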

How the results depend on the processing

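In all 16 other settings 0 probes passed with limma. Unadjusted counts ran from 72 (trended, robust model) to 1054 (no filter), and the lowest adjusted p was 0.0595 (replicate 1 turned, 1047 unadjusted). Median log2 ratios that moved were, for all genes, -0.051 without background subtraction, -0.19 with processed signals, -0.34 with median centring, 0.024 with both channels required, -0.038 with array weights, -0.12 in the authors' table and -0.061 with replicate 1 turned (-0.072 to 0.0014 leaving out an array). Other cyclins were at -0.12 with processed signals, -0.27 with median centring and -0.16 with replicate 1 turned (-0.11 to 0.021 leaving out an array). Phosphatases were at -0.38, -0.42 and -0.31 with processed signals, median centring and the authors' table. Cyclin B destruction was at -0.18 and -0.60 with processed signals and median centring. With median centring the members were at -0.57 (-0.15 to 0.091 leaving out an array) and the upstream kinases at -0.68. Signs reversed for the middle Ccnb1 probe with processed signals (-0.095), median centring (-0.72), the mean over probes (-0.23), array weights (-0.46), the authors' table (-0.027) and replicate 1 turned (-0.18). They reversed with median centring for Ccnb2 (-0.57), downstream Cdc25a (-0.043), Pkmyt1 (-0.47), Ywhag (-0.31), Dusp1 (-0.61) and Fbxo5 (-0.071). With replicate 1 turned they reversed for Pkmyt1 (-0.069), Dusp1 (-0.31), Ppp1r2 (0.0043), Ppp2r5c (-0.025) and Cdc20 (0.012). Array weights reversed Cdc25b (0.0096), Dusp1 (-0.16) and Cdkn2c (0.10). Cdkn2c was also at 0.10 without background subtraction, 0.055 with processed signals and 0.12 in the authors' table, and Cul1 at 0.013 as the mean over probes. Leaving out an array gave -0.13 to 0.34 for middle Ccnb1, -0.11 to 0.24 for Ccnb2, -0.25 to 0.091 for Cdc25b, -0.15 to 0.42 for Pkmyt1, -0.16 to 0.18 for Dusp1, -0.15 to 0.20 for Cdkn2c and -0.15 to 0.11 for Wee2. The causes were not tested. The arrays form 1 group whose ratios already pair the pools, so limma's test of each mean ratio against 0 is the paired analysis.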

Other observations

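Wee2, the oocyte form of the WEE1 kinase that holds CDK1 inactive in prophase arrest, is on the array under the name BC052883 (chromosome 6, 40396325 to 40396384 in build mm7) and was looked up after the values of Wee1 had been seen. Unlike the Wee1 probe, its probe was well above background in both channels on 4 of 4 arrays. Its log2 ratios of treated over control were 0.077, -0.55, 0.019 and 0.22 in replicates 1 to 4, with a mean of -0.058 ± 0.34 (SD, n = 4) and an adjusted p by limma of 0.977. Replicate 2 alone lay below 0.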
